A study of Mus musculus with 24 samples.

Results

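The mouse miRNAs miR-146a, miR-146b and miR-155 (assays mmu-miR-146a, mmu-miR-146b and mmu-miR-155) are 3 small regulatory RNAs best known from inflammation, and their levels were followed here in mouse muscle stem cells before and after muscle injury. The 3 were chosen by name, as the miRNAs most often described as induced by inflammatory signalling, with earlier results of these data known. They make up 3 of the 584 miRNA assays of the series. Muscle stem cells lie quiescent beside the muscle fibre and divide after injury. The series holds 24 real-time PCR arrays of their total RNA. Quiescent cells (QSC) form the 0 h group, and activated cells (ASC) were harvested 36, 60 and 72 h after injury. All cells came from male C57BL/6 mice aged 8 weeks, and no transgene or drug is named in any group. Each group has 3 replicates on a card of type A (375 miRNA assays) and 3 on a card of type B (209 assays). The series' design calls the replicates technical, so the errors and p-values below cover the spread between arrays and say nothing of mice. No cell sort, kind of injury or number of mice is named in the labels.

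miRNAs are short RNAs that guide Argonaute proteins to messenger RNAs, mainly through bases 2 to 8 of the miRNA, called the seed. Transcription of the genes of miR-146a and miR-155 is raised by NF-kB and Toll-like receptor signalling in macrophages and other cells. miR-146a and miR-146b are made from different genes and repress Irak1 and Traf6, adaptors of the same receptors, and so belong to a negative feedback. miR-155 is cut from the transcript of the B-cell integration cluster gene and represses Socs1, a brake on cytokine signalling, and Inpp5d, the phosphatase SHIP1. It is abundant in activated lymphocytes and myeloid cells. Such cells enter injured muscle, and RNA of a mixed preparation carries their miRNAs too.

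The mature sequences are shown because they tell which of the 3 can share targets and which assays could read each other's miRNA. They are from RefSeq (GRCm38.p6), 5′ to 3′, with the seed in capitals.
miR-146a-5p: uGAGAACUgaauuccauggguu
miR-146b-5p: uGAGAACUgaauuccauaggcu
miR-155-5p: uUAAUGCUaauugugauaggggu
miR-146a-5p lies at chr11:43374435-43374456 on the minus strand, in the gene Mir146. miR-146b-5p lies at chr19:46342790-46342811 on the plus strand, inside the long noncoding gene Gm36493. miR-155-5p lies at chr16:84714143-84714165 on the plus strand, inside its host gene Mir155hg, a long noncoding RNA. miR-146a-5p and miR-146b-5p have the same seed, GAGAACU, and no other of the 1679 mature mouse miRNAs in the RefSeq table has it. Of their 22 bases 20 are the same. The 2 differences, counted from the 5′ end with the miR-146a base given before the position, are G18A and U21C. Whether either assay also read the other miRNA was not tested, and the assays' own primer and probe sequences are not in the sources used. The seed of miR-155-5p, UAAUGCU, was found in no other entry of the table.

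Every array gives a threshold cycle (Ct) per spot, which counts the PCR cycles needed to bring the fluorescence to a set threshold, so a lower Ct means more RNA. A level is the mean Ct of the 4 U6 small nuclear RNA spots of an array minus the Ct of the assay. It is a log2 scale on which a step of 1 is a factor of 2, if each cycle doubles the product, and all levels lie below 0 because U6 is abundant. An assay counted as detected on an array at a Ct below 35. The 3 assays are on card A with 1 spot each, and each was detected on 12 of 12 arrays, with group mean Ct values from 20.6 to 26.1. The U6 Ct lay between 14.9 and 15.4 over the 12 arrays.

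mmu-miR-146b had the widest range of the 3. Its level was -10.77, -10.69 and -10.69 on the 3 arrays at 0 h, a mean of -10.71 ± 0.05 (SD, n = 3). At 36 h it was -5.72, -5.60 and -5.69, a mean of -5.67 ± 0.06 (SD, n = 3). The arrays at 60 h gave -9.56, -9.49 and -9.56, with a mean of -9.53 ± 0.04 (SD, n = 3). The 3 arrays of each group lay close together, and no group overlapped another. At 72 h the level was -10.91, -10.85 and -10.89, a mean of -10.88 ± 0.03 (SD, n = 3). The order of the groups was 36 h, 60 h, 0 h and 72 h from high to low, with a range of 5.22 between the group means, or 37.2-fold.

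mmu-miR-146a gave the same order of groups over a smaller range. Its level at 0 h was -9.86, -9.73 and -9.67, with a mean of -9.75 ± 0.10 (SD, n = 3). At 36 h it was -6.57, -6.35 and -6.57, with a mean of -6.50 ± 0.13 (SD, n = 3). The 36 h arrays stood far above all others. At 60 h the level was -9.44, -9.33 and -9.33, a mean of -9.37 ± 0.06 (SD, n = 3). At 72 h it was -9.82, -9.64 and -9.88, a mean of -9.78 ± 0.12 (SD, n = 3). The 72 h and 0 h arrays overlapped and the other groups did not, and the whole range between group means was 3.28, or 9.73-fold.

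mmu-miR-155 differed in its time course. Its level at 0 h was -9.69, -9.46 and -9.60, a mean of -9.58 ± 0.12 (SD, n = 3). At 36 h it was -7.58, -7.56 and -7.56, a mean of -7.57 ± 0.0086 (SD, n = 3). At 60 h it was still -7.57, -7.78 and -7.66, with a mean of -7.67 ± 0.11 (SD, n = 3). The 36 h and 60 h arrays overlapped, and both groups lay above the other two. At 72 h the level was -9.35, -9.38 and -9.35, a mean of -9.36 ± 0.02 (SD, n = 3), above every 0 h array. The range between group means was 2.02, or 4.05-fold, the narrowest of the 3.

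**Figure D1:**
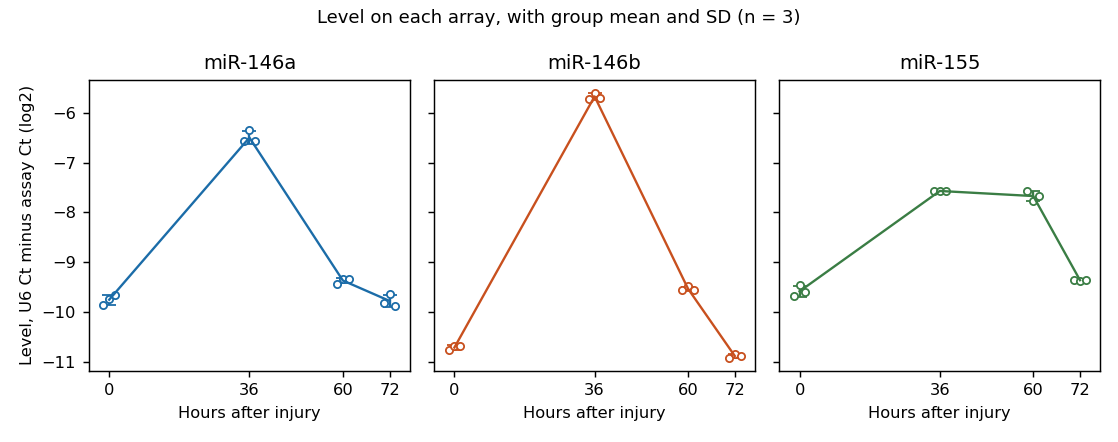
Levels of miR-146a, miR-146b and miR-155 (log2, U6 Ct minus assay Ct) on each array at 0, 36, 60 and 72 h after injury. Points are arrays (3 per group) and lines join the group means. miR-146a and miR-146b peak at 36 h, and miR-155 stays near -7.6 at 36 h and 60 h.

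The comparison of each later group with quiescent cells asks what changed with activation. At 36 h all 3 miRNAs were higher, miR-146b by far the most. miR-146b rose by 5.05 ± 0.05 (log2, SE), or 33.1-fold (limma, adjusted p = 6.61e-14). miR-146a rose by 3.26 ± 0.09, or 9.57-fold (adjusted p = 1.4e-10), and miR-155 by 2.02 ± 0.07, or 4.05-fold (adjusted p = 8.64e-10). A change was called at an adjusted p below 0.05, with Benjamini-Hochberg adjustment across the tested assays of cards A and B together, and at least 2-fold. All 3 were called higher at 36 h, where 44.1% of the 272 tested assays were, so the count of 3 says little by itself. The sizes place them better. miR-146b had the rank 7 among the 272 changes from the highest down, miR-146a the rank 29 and miR-155 the rank 66. The median change over all tested assays was 0.82, and over those of card A alone 0.91.

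At 60 h miR-155 had moved from the smallest to the largest change of the 3, and miR-146a was near its 0 h level. miR-155 was higher by 1.91 ± 0.07, or 3.77-fold (limma, adjusted p = 6.88e-10), and miR-146b by 1.18 ± 0.05, or 2.27-fold (adjusted p = 2.53e-09). miR-146a was higher by 0.39 ± 0.09, or 1.31-fold (adjusted p = 0.00169), below the 2-fold limit, though it was called (2.79) with another control RNA, snoRNA202, in place of U6. So 2 of the 3 were called higher, where 28% of 250 tested assays were. The median change of all tested assays was -0.37, and of those of card A alone -0.49. As a share of the log2 rise at 36 h, the rise at 60 h was 94.9% for miR-155, 23.4% for miR-146b and 11.8% for miR-146a.

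By 72 h none of the 3 was called changed from 0 h with U6, where 67.2% of 244 tested assays were called in either direction. All 3 were called higher with snoRNA202, miR-146a and miR-155 also with the mean of all assays detected on every array of a card (the global mean), and miR-155 with the control RNA snoRNA135. The log2 change of miR-146a was -0.03 ± 0.09, with a 95% interval from -0.22 to 0.17 (limma, adjusted p = 0.794). That of miR-146b was -0.17 ± 0.05 (adjusted p = 0.00808) and that of miR-155 was 0.22 ± 0.07 (adjusted p = 0.0106). The unadjusted limma p was below 0.05 for 2 of the 3, both at under 2-fold. At least the 67.2% of tested assays that were called had such a p too, so this count says little by itself. The median change of all tested assays was -0.77, so the 3 lay above it, miR-155 at rank 69, miR-146a at rank 84 and miR-146b at rank 92 from the highest down. On card A alone, which holds the 3, the median was -1.37. miR-146a, miR-146b and miR-155 lay 1.34, 1.20 and 1.59 above it. The 3 comparisons with 0 h share the same 0 h arrays.

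**Figure D2:**
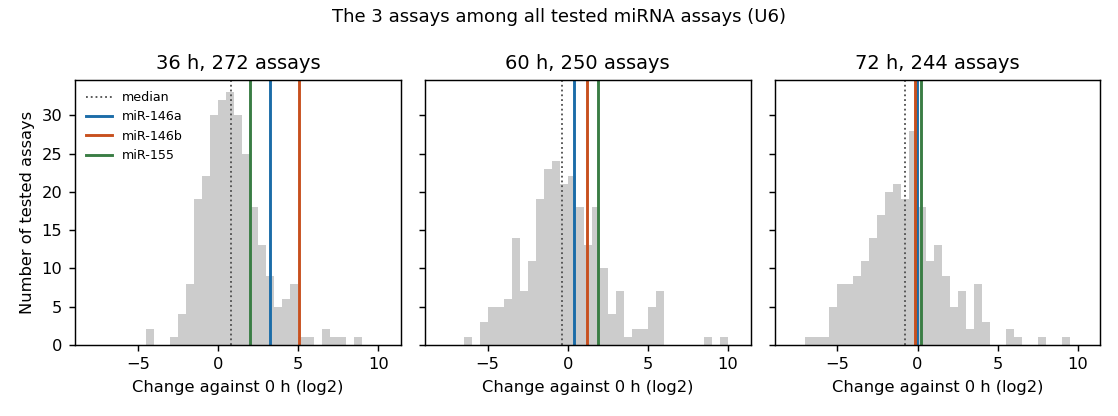
Distribution of the log2 change against 0 h of every tested miRNA assay at 36 h (272 assays), 60 h (250) and 72 h (244), with miR-146a, miR-146b and miR-155 marked. At 36 h miR-146b stands at 5.05 against a median of 0.82, and at 72 h the 3 lie between -0.17 and 0.22 against a median of -0.77. The medians pool cards A and B.

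The later groups were also compared with each other, which shows when each miRNA fell. Between 36 h and 60 h miR-146b fell by 3.87 ± 0.05 on the log2 scale, or 14.6-fold (limma, adjusted p = 1.51e-12), and miR-146a fell by 2.87 ± 0.09, or 7.32-fold (adjusted p = 3.49e-10). miR-155 had a change of -0.10 ± 0.07 with a 95% interval from -0.26 to 0.05 (adjusted p = 0.189). So 2 of the 3 were called lower, where 49.5% of 279 tested assays were. Over all tested assays the median change was -1.02, and over those of card A alone -1.27. Between 60 h and 72 h miR-155 fell by 1.69 ± 0.07, or 3.23-fold (adjusted p = 1.09e-08), the rank 22 among 265 tested assays from the lowest up. miR-146b fell by a further 1.35 ± 0.05, or 2.55-fold (adjusted p = 8.51e-09). miR-146a had a change of -0.41 ± 0.09 (adjusted p = 0.00151), under 2-fold. Again 2 of the 3 were called lower, where 36.2% of all tested assays were and the median change was -0.75 (-0.87 on card A alone). The call of miR-146b was lost with each of the 4 other normalizers tried (-0.82, -0.71, -0.92 and -0.47 with snoRNA135, snoRNA202, the Y1 RNA and the global mean), and that of miR-155 with the global mean (-0.82). From 36 h to 72 h all 3 were called lower, as were 69.3% of 270 tested assays, and miR-146b, which fell by 5.22 ± 0.05 or 37.2-fold (adjusted p = 1.34e-13), had the rank 4 from the lowest up. miR-146a fell by 3.28 ± 0.09 and miR-155 by 1.79 ± 0.07 over the same span. The fall of miR-155 was close to the median change of all tested assays of both cards, -1.82, at rank 137 from the lowest up. On card A alone, which holds miR-155, the median was -2.30, and miR-155 lay 0.50 above it. The value of miR-155 turned to 0.38 under snoRNA202 and to 0.53 under the global mean, and under Y1 (-0.82) it lost its call, and miR-146a lost its call with the global mean (-0.96).

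Several of these values rest on the choice of U6, since the other control RNAs on card A did not keep a constant ratio to it. Against 0 h, the log2 changes of snoRNA202 relative to U6 at 36, 60 and 72 h were -0.88, -2.40 and -3.05. That of snoRNA135 was -0.22, -0.34 and -0.87, and that of the Y1 RNA was 0.65, 0.11 and -0.32. Levels were therefore also set against snoRNA135, snoRNA202, Y1 and the global mean. The rise at 36 h kept its direction under all of them. It lay between 3.76 and 5.92 for miR-146b and between 1.97 and 4.14 for miR-146a, always called. For miR-155 it was 0.73 against the global mean, which ends the call. The fall of miR-146b and miR-146a from 36 h to 60 h was called under each normalizer, as was the rise of miR-155 and miR-146b from 0 h to 60 h. The small differences have no settled sign. The 72 h value of miR-146a against 0 h was 0.84 with snoRNA135, 3.02 with snoRNA202, 0.30 with Y1 and 1.01 with the global mean, and that of miR-146b was 0.70, 2.88, 0.16 and 0.86. miR-155 between 36 h and 60 h changed by 0.02, 1.43, 0.44 and 1.35 under the same 4 normalizers.

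**Figure D3:**
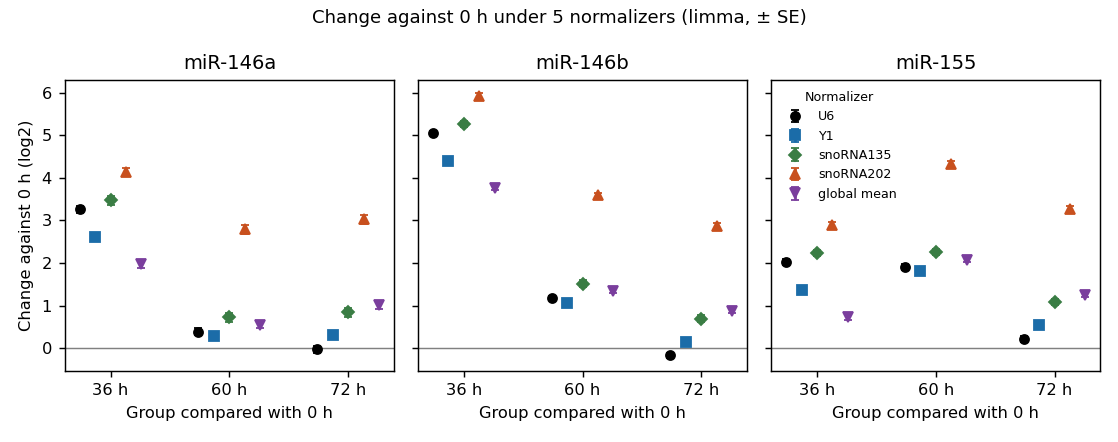
Log2 changes of miR-146a, miR-146b and miR-155 against 0 h at 36, 60 and 72 h under U6, snoRNA135, snoRNA202, Y1 and the global mean. The changes at 36 h lie above 0 for every normalizer, and the 72 h changes of miR-146a and miR-146b lie below 0 with U6 alone.

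The split of called assays over both cards also moved with the normalizer. With U6, 120 assays were called higher and 33 lower at 36 h against 0 h, whereas the counts were 75 and 68 with Y1, 59 and 89 with the global mean and 180 and 7 with snoRNA202. At 60 h they were 70 and 91 with U6 and 179 and 20 with snoRNA202. At 72 h they were 51 and 113 with U6, 65 and 85 with snoRNA135, 72 and 80 with the global mean and 166 and 24 with snoRNA202. From 36 h to 60 h they were 15 and 138 with U6, 46 and 99 with Y1, 75 and 64 with the global mean and 94 and 54 with snoRNA202. From 60 h to 72 h they were 2 and 96 with U6, 8 and 51 with snoRNA135, 25 and 17 with the global mean and 9 and 37 with snoRNA202. From 36 h to 72 h they were 11 and 187 with U6, 76 and 68 with the global mean and 70 and 70 with snoRNA202.

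A difference between 2 assays on the same array needs no normalizer, so it shows directly whether the 3 moved together. They did not. The assays may differ in efficiency, so only the change of a difference between groups is read here, not its size. The level of miR-146b minus that of miR-146a was -0.96 ± 0.06 in quiescent cells and 0.83 ± 0.07, -0.17 ± 0.05 and -1.11 ± 0.10 at 36, 60 and 72 h (log2, SD, n = 3). From 0 h to 36 h miR-146b thus gained 1.79 on its seed partner, or 3.46-fold, and by 72 h the gain was gone. The level of miR-155 minus that of miR-146b was 1.13 ± 0.08 in quiescent cells and -1.90 ± 0.06, 1.86 ± 0.14 and 1.52 ± 0.05 at 36, 60 and 72 h. miR-155 lost 3.03 on miR-146b by 36 h, or 8.17-fold, and stood 0.73 above its starting difference at 60 h. Against miR-146a, the difference of miR-155 was 0.17 ± 0.10, -1.07 ± 0.12, 1.70 ± 0.16 and 0.42 ± 0.14 in the order of time. Each of the 3 differences varied over the 4 groups more than within them, with an exact permutation p of 0.00013 for miR-146b against miR-146a and for miR-155 against miR-146a and of 6.49e-05, the smallest possible, for miR-155 against miR-146b. The test ran over all 15400 ways to divide 12 arrays into 4 groups of 3, and the Benjamini-Hochberg adjusted p over the 3 pairs was 0.00013 for each.

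**Figure D4:**
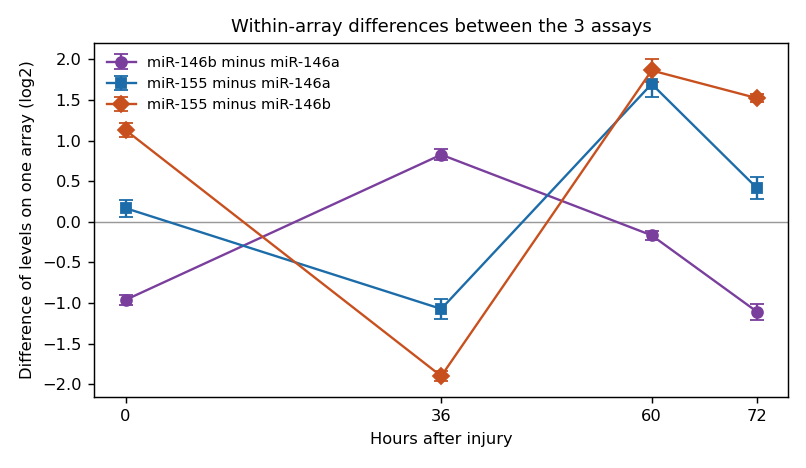
Within-array differences of level (log2) between miR-146b and miR-146a, miR-155 and miR-146a, and miR-155 and miR-146b at 0, 36, 60 and 72 h. Points are group means and bars are the SD over the arrays of a group. The miR-155 minus miR-146b difference drops to -1.90 at 36 h and stands at 1.86 at 60 h.

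The other arm of the miR-146b hairpin gives a separate measurement of the same gene, on another card. Its assay carries the name miR-146b* on card B, and RefSeq lists the arm as miR-146b-3p at chr19:46342828-46342849 on the plus strand.
miR-146b-3p: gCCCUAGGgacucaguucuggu
In the hairpin of 109 bases (chr19:46342762-46342870, plus strand) the capitals mark the 5p arm, bases 29 to 50, and the 3p arm, bases 67 to 88.
Mir146b hairpin: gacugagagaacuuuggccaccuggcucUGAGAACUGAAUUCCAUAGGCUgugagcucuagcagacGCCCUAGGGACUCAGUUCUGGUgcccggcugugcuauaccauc
The star strand, as the rarer arm is called, was read at 36 h only. Its 2 spots gave a Ct of 32.03 and 31.56 on the 36 h array of replicate 1, 31.1 and 30.8 on that of replicate 2, and 31.3 and 30.8 on that of replicate 3. Neither spot gave any Ct on the 9 arrays of 0 h, 60 h and 72 h. The mean level at 36 h was -16.56 ± 0.48 (SD, n = 3), near the detection limit. With the other groups set to the limit of Ct 35, the star strand was at least 7.38-fold higher at 36 h than at 0 h, at least 7.75-fold higher than at 60 h and at least 7.14-fold higher than at 72 h. The detection filter left the star strand out of the fit. In the fit without that filter, with undetected values at Ct 35, its change at 36 h against 0 h was 2.88 ± 0.20 (log2, SE, limma, adjusted p = 8.4e-07), but values set to the limit carry only the spread of U6. The authors' deposited table gives 991 and 1365 as the fold of its 2 spots at 36 h against day 0. Those folds are from undetermined Ct values written as 40 and a 36 h constant of 16.97 on card B, where the mean U6 Ct was 14.7. For the 3 miRNAs on card A, the authors' deposited table gives folds of 9.61, 33.1 and 4.05 at 36 h and 1.31, 2.27 and 3.78 at 60 h for miR-146a, miR-146b and miR-155. No other assay of these miRNAs, such as a rat assay or another arm, was matched by name on either card.

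To show which miRNAs had the most similar time course, each of the 3 was compared with the 151 miRNA assays of card A detected on 12 of 12 arrays. The measure was the root mean square difference over the 12 arrays between levels centred on each assay's own mean, in log2 units, in which the normalizer cancels. The nearest partner of miR-155 was miR-222, at a distance of 0.149. Next to miR-155 came miR-15b (0.329), miR-28 (0.373), miR-27a (0.403) and miR-872 (0.416). miR-222 targets the cell cycle inhibitor p27 and is encoded beside miR-221 on the X chromosome. Its changes against 0 h were 1.98, 1.78 and 0.44 at 36, 60 and 72 h, beside 2.02, 1.91 and 0.22 for miR-155. The seeds of these partners are shown because they differ from those of miR-146 and miR-155.
miR-222-3p: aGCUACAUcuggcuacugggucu
miR-199a-3p: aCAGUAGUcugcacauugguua
miR-222-3p lies at chrX:19146901-19146923 on the minus strand, and miR-199a-3p comes from chr1:162217883-162217904 on the plus strand and chr9:21496498-21496519 on the minus strand. miR-199a-3p, a miRNA of fibroblasts and other mesenchymal cells, was nearest to miR-146a, at 0.346. It was followed by miR-140 (0.446), miR-148a (0.523), miR-218 (0.558) and miR-196b (0.575). The changes of miR-199a-3p against 0 h were 3.19, 0.19 and -0.86. The last of these turned positive with snoRNA202 and the global mean, and only barely so with snoRNA135. miR-199a-3p was also nearest to miR-146b, at 0.666, ahead of miR-132 (0.764), miR-146a itself (0.771), miR-340-5p (0.901) and miR-185 (0.933). The distance is not scaled to the range of an assay, which was 5.22 for miR-146b and 2.02 for miR-155. Distances of different members therefore do not show which of them had the partner closer in shape. Seen from miR-146a, miR-146b had the rank 19 of 151 and miR-155 the rank 42, and seen from miR-146b, miR-146a had the rank 3.

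Other miRNAs described as linked to NF-kB or Toll-like receptor signalling were read from a list of 19, of which 18 matched an assay and 13 could be tested against 0 h. All matched assays were on card A, where the median changes of tested assays were 0.91, -0.49 and -1.37 at 36, 60 and 72 h. At 36 h 7 of the 13 were called higher and 0 lower, with a median log2 change of 1.34 against 0.82 over all tested assays, of which 44.1% were called higher and 12.1% lower. miR-223, a miRNA of neutrophils and monocytes, rose by 7.65 (200-fold), and miR-21, which represses Pdcd4, rose by 6.62 (98.2-fold). Under the other normalizers between 5 and 13 of the 13 were higher and 0 lower. At 60 h 7 were higher and 4 lower, where 28% of all tested assays were higher and 36.4% lower, with a median of 1.06 against -0.37. miR-21 was higher by 5.93 (60.8-fold) and miR-221, the neighbour of miR-222, by 5.52 (46.0-fold). miR-181c and miR-181a, which share a seed, had changes of -2.24 and -2.02, but stood at 0.17 and 0.39 with snoRNA202. At 72 h 5 were higher and 5 lower, beside 20.9% and 46.3% of all tested assays, with a median of -0.09 against -0.77, and with snoRNA202 9 were higher and 0 lower. miR-21 stayed higher by 4.49 (22.5-fold) and miR-223 by 3.81 (14.04-fold), while miR-125b-5p fell by 3.39 (10.5-fold) and miR-181c by 3.30 (9.84-fold), with values of -0.34 and -0.25 under snoRNA202. Between 36 h and 72 h all 14 tested members of the list were called lower, against 69.3% of all tested assays, but with the global mean 4 were lower and 1 higher, and with snoRNA202 5 and 1.

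Of that list, miR-132, a miRNA induced through CREB, was the nearest to miR-146b, with changes of 4.47, 2.13 and 1.17 at 36, 60 and 72 h. let-7i, a let-7 member that targets Tlr4, had 4.25, 3.22 and 1.88, and miR-221 had 4.93, 5.52 and 3.55. These 3 assays, chosen after their values were seen, were still called higher at 72 h, whereas miR-146a, miR-146b and miR-155 were not with U6. miR-147, miR-187 and miR-98 were detected on no array. miR-9 was detected on 0 of 3 arrays at 0 h and 3 of 3 at 36 h, and miR-210, a miRNA of low oxygen, on 1 of 3 at 0 h and 3 of 3 at 36 h.

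All 3 miRNAs are abundant in leukocytes, and leukocyte markers moved over the same times. Of the 4 marker assays 3 could be tested, and 2 were called higher at 36 h: miR-142-3p by 8.54 ± 0.58 and miR-223 by 7.65 ± 0.07 (log2, SE, limma). The third, miR-150, a miRNA of mature lymphocytes, had a change of 0.41 ± 0.08 and was not called. miR-142-5p was detected on 0 of 3 arrays at 0 h and 3 of 3 at 36 h. The 0 h level of miR-142-3p lay near the detection limit and varied with an SD of 1.54, far more than those of the 3 miRNAs studied. Its changes against 0 h are therefore imprecise. At 60 h miR-142-3p was higher by 5.91 and miR-223 by 4.06, and miR-150 fell by 3.67. At 72 h the first pair stood at 5.61 and 3.81, and miR-150 fell by 4.21. Summed over the 4 assays, the marker level was 2.15% to 2.21% of U6 in quiescent cells. It was 6.04% to 6.36% in the 36 h group, 0.438% to 0.479% in the 60 h group and 0.327% to 0.376% in the 72 h group. Such a sum takes the assays as equally efficient and follows its most abundant one, which at 0 h was miR-150, at a level of -5.53 beside -12.62 for miR-223 and -18.22 for miR-142-3p. At 60 h miR-150 was below its 0 h level, while miR-142-3p and miR-223 were 60.2-fold and 16.6-fold above theirs. In these bulk samples fewer cells of a type and less RNA per cell cannot be told apart. The part of leukocyte RNA in the changes of miR-146a, miR-146b and miR-155 was not tested.

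**Figure D5:**
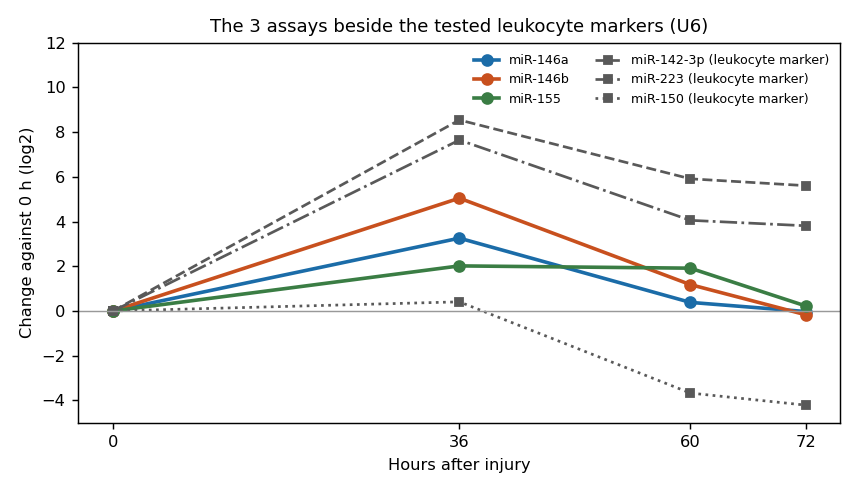
Log2 change against 0 h at 36, 60 and 72 h of miR-146a, miR-146b and miR-155 beside the leukocyte marker miRNAs miR-142-3p, miR-223 and miR-150. Points are limma estimates from 3 arrays per group, drawn without error bars. The 0 h level of miR-142-3p lay near the detection limit. miR-142-3p and miR-223 stay above 0 h at 72 h, where the 3 miRNAs studied lie between -0.17 and 0.22.

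Markers of other cells moved with 36 h as well. The 2 endothelial assays, miR-126-3p and miR-126-5p, were higher by 2.22 and 1.95 at 36 h, which was not called with the global mean. Their summed level was 4.37% to 4.62% of U6 in quiescent cells, 20.4% to 20.6% in the 36 h group, 1.29% to 1.37% in the 60 h group and 1.17% to 1.19% in the 72 h group. The 4 mesenchymal and smooth muscle assays summed to 10.7% to 11.6% in quiescent cells, then to 14.8% to 15.4%, 1.39% to 1.43% and 0.883% to 0.930% in the 3 later groups. At 0 h this sum followed its most abundant assay, miR-145, at a level of -3.41. With U6, miR-143, miR-199a-3p and miR-214 were called higher at 36 h by 2.57, 3.19 and 1.41, and miR-145 had a change of -0.33. With the global mean 2 of these 4 assays were called higher at 36 h and 1 lower. At 60 and 72 h the median change against 0 h of the endothelial assays was 0.64 and 0.98 with snoRNA202. That of the mesenchymal and smooth muscle assays was 0.62 and 1.06. Both medians were below 0 with U6, snoRNA135, Y1 and the global mean. The erythroid marker miR-451 was detected on 0 of 3 arrays at 0 h and 3 of 3 at 36 h. miR-200a and miR-200b, which define epithelium, were detected on no array, miR-200c and miR-205 on 0 of 3 at 0 h and 3 of 3 at 36 h. The fifth epithelial assay, miR-203, was detected on 12 of 12 arrays, with changes of 0.44, -1.68 and -2.97 at 36, 60 and 72 h. With snoRNA202 its changes at 60 and 72 h were 0.72 and 0.08, and with the other normalizers they stayed below 0. The 5 muscle assays, among them miR-206 and miR-133b, were detected on 12 of 12 arrays, and their sum was 6.10% to 7.73% of U6 at 0 h and 49.3% to 52.4% at 72 h. That sum followed its most abundant assay, miR-206, at a level of -3.86 at 0 h and -1.03 at 72 h. miR-489, a marker of quiescent muscle stem cells, was read on all arrays with changes of -1.40, -4.85 and -6.66 at 36, 60 and 72 h. The part of these cell types in the levels of miR-146a, miR-146b and miR-155 was not tested.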

How the data were processed

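miRNAs were measured on TaqMan rodent cards, 40 cycles on an ABI 7900HT, per the labels. Per the file headers, the values are Ct per spot, on a log2 scale. A second kind of deposited table, 1 for cards A and 1 for cards B, adds the authors' dCt and fold change (a ratio to day 0). Its last time point is named day 3.5, not 72 h as in the labels, and 48 per-sample columns, these among them, were not used. For the Ct, software and threshold are not given in the sources used.

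From the Ct values, log2 levels were computed as mean U6 Ct of the array minus assay Ct. Values at Ct 35 or above were left out. limma 3.58.1 (R 4.3.3; lmFit, eBayes) was fitted per card on all 12 arrays, for assays with at least 2 detected replicates in both groups. The script was tested on simulated data. The card type was read from the assay names in each array's file. The 3 miRNAs and the lists were chosen with earlier results of these data known. Named are the 3 miRNAs, other assays of them, the 5 nearest card A assays of each, and from the NF-kB and leukocyte lists the 2 largest changes each way against 0 h. Also named are let-7i, assays of these lists that could not be tested against 0 h, and markers of other cell types. Alternatives were the normalizer, the Ct limit, the replicate block, fits on 2 groups and leaving out arrays.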

Additional observations from a re-analysis of the deposited data

How the results depend on the processing

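The normalizer moved more results than any other choice tried. With snoRNA135, snoRNA202, Y1 and the global mean in turn, the 72 h change against 0 h was 0.84, 3.02, 0.30 and 1.01 for miR-146a and 0.70, 2.88, 0.16 and 0.86 for miR-146b, all turned from negative with U6. Of these, both values with snoRNA202 and that of miR-146a with the global mean passed the call. The change of miR-155 from 36 h to 60 h became 0.0199, 1.43, 0.44 and 1.35, and that of miR-146a from 60 h to 72 h 0.12, 0.23, 0.0237 and 0.47. The fall of miR-146b from 60 h to 72 h lost its call, at -0.82, -0.71, -0.92 and -0.47. miR-155 at 72 h against 0 h gained a call with snoRNA135 (1.09), snoRNA202 (3.27) and the global mean (1.26). miR-146a at 60 h against 0 h gained a call with snoRNA202 (2.79). From 36 h to 72 h, miR-155 stood at 0.38 with snoRNA202 and 0.53 with the global mean, both turned in sign, and at -0.82 with Y1, without a call. With the global mean calls were also lost for miR-155 at 36 h (0.73) and from 60 h to 72 h (-0.82), and for miR-146a from 36 h to 72 h (-0.96). The count of assays called between 60 h and 72 h was 98 with U6, 59 with snoRNA135, 46 with snoRNA202 and 42 with the global mean. The cause was not tested.

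The other Ct limits and fits on 2 groups changed no call of the 3 miRNAs. Leaving out arrays turned the sign of 1 result only, miR-146a at 72 h against 0 h, which ranged from -0.0934 to 0.0665. By their deviations from the group means, 9 of 36 same-number pairs correlated above 0.1. On card A, which holds the 3 miRNAs, no 2 groups had all their pairs above 0.1, so the numbers were not taken to pair these arrays. On card B the 0 h and 60 h arrays did, at 0.34 to 0.491. With the replicate number as a block, miR-146b at 36 h was again 5.05 higher, no call of the 3 changed, and the exact permutation p of the within-array differences was 0.00347, 0.00347 and 0.00174. Precision is limited by 3 technical replicates. At Ct 20.6 to 26.1 the 3 assays lie well inside the limit of 35, and miR-146b* at 31.3 does not lie far from it.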
